A study of Mus musculus with 14 samples.

Results

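The lysosome and phagosome acidification genes described here are 38 mouse genes, chosen by name from a fixed list of lysosomal enzymes, lysosomal membrane proteins, proton pump subunits and regulators of the lysosome. All 38 were measured, among 30579 genes tested (17290 of them with a gene symbol), in RNA of whole lungs of male mice (strain C57BL/6N). The study placed carbon fibre in the trachea at 200 µg per mouse and took the lungs 1 month later. It used the fibre before recycling (VCF, n = 3), after carbonization (CCF, n = 3) and after firing (RCF, n = 3), and gave PBS vehicle to the controls (n = 5). The 14 samples, described by the submitters as independent biological samples, were each hybridised to a one-colour array. The age of the mice and the dimensions of the fibres are not given in the sources used here.

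The lysosome is the acidic compartment in which cells break down what they take up or recycle, and in the lung alveolar macrophages deliver inhaled particles to it through phagosomes. A membrane-bound ATPase pumps protons into the lumen, where acid-dependent proteases, glycosidases and lipid-splitting enzymes work, while heavily glycosylated membrane proteins line the inside of the membrane. The transcription factor TFEB is known to raise many of these genes together by binding a palindromic element near their start sites.

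The 38 genes fall into 10 proteases, 11 glycosidases and lipid-handling hydrolases with their activators, 8 lysosomal and endosomal membrane proteins, 6 proton pump genes and 3 regulators. They were read by 56 probes, all of which passed the filter on dim probes (a probe had to be well above background on 3 or more of the 14 arrays). The brightest probe by mean stood for a gene that had several, and for every member that probe was above background on 14 of 14 arrays and saturated on none. Levels are log2 intensities on a scale where 0 is an array's 75th percentile, differences are log2 values followed by the standard error (SE) from limma, and p-values were adjusted over all genes tested (Benjamini-Hochberg, "adjusted p"). All comparisons with vehicle share the same 5 control arrays. The arrays stood on 3 slides. Slide 3 held RCF 2, RCF 3, control 4 and control 5, and all VCF and CCF arrays stood on slides 1 and 2. The 75th percentile of intensity ran from 277 in VCF 1 to 2953 in RCF 2, with VCF 1, CCF 2 and RCF 1 the dim arrays.

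In CCF lungs 1 of 38 members, Lamp2, rose against vehicle at an adjusted p under 0.05, and none fell, where 5.99% of all genes passed limma's threshold in either direction (3.78% higher and 2.21% lower). With only probes above background on all 14 arrays, as those of all members were, 2700 of 19880 genes passed in CCF. Ctsd, Lamp2 and Lgmn were the members among them. In VCF 0 of 38 passed, where 0.085% of all genes did, and 2 (Lgmn and Ctsb) had an unadjusted p under 0.05, both lower, against 4.99% of all genes. In RCF 0 of 38 passed, where 0.154% of all genes did, and 5 had an unadjusted p under 0.05 (Ctsc, Ctss and Lamp2 higher, Ctsd and Hexa lower), against 8.78% higher and 4.15% lower of all genes. For the mean of the 3 fibres against vehicle 0 of 38 passed, where 2.58% of all genes did, and 7 had an unadjusted p under 0.05 (Ctsc, Lamp2 and Asah1 higher, Ctsd, Lgmn, Psap and Neu1 lower), against 11.5% and 8.05%. In CCF that number was also 7 (Ctsc, Ctss, Lamp2, Asah1 and Atp6ap1 higher, Ctsd and Lgmn lower), against 12.9% and 10.8%.

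The members had small errors. The median residual SD over the members was 0.18, against 0.38 over all genes tested, and the median SE of a difference between a fibre and vehicle was 0.15, against 0.27. The members were also brighter on average, with a mean level of 3.38 on control 1, against −1.35 over all genes tested. What part of the smaller spread goes with brightness was not tested. The 95% confidence interval of the difference lay within a 2-fold change either way for 36 of 38 members in VCF, 34 in CCF and 37 in RCF. The members outside that bound were Gla and Lipa in VCF, Ctsa, Gla, Lipa and Laptm5 in CCF, and Gla in RCF. For these genes the arrays of a group spread too widely for a 2-fold difference to be shown or bounded.

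**Figure D1:**
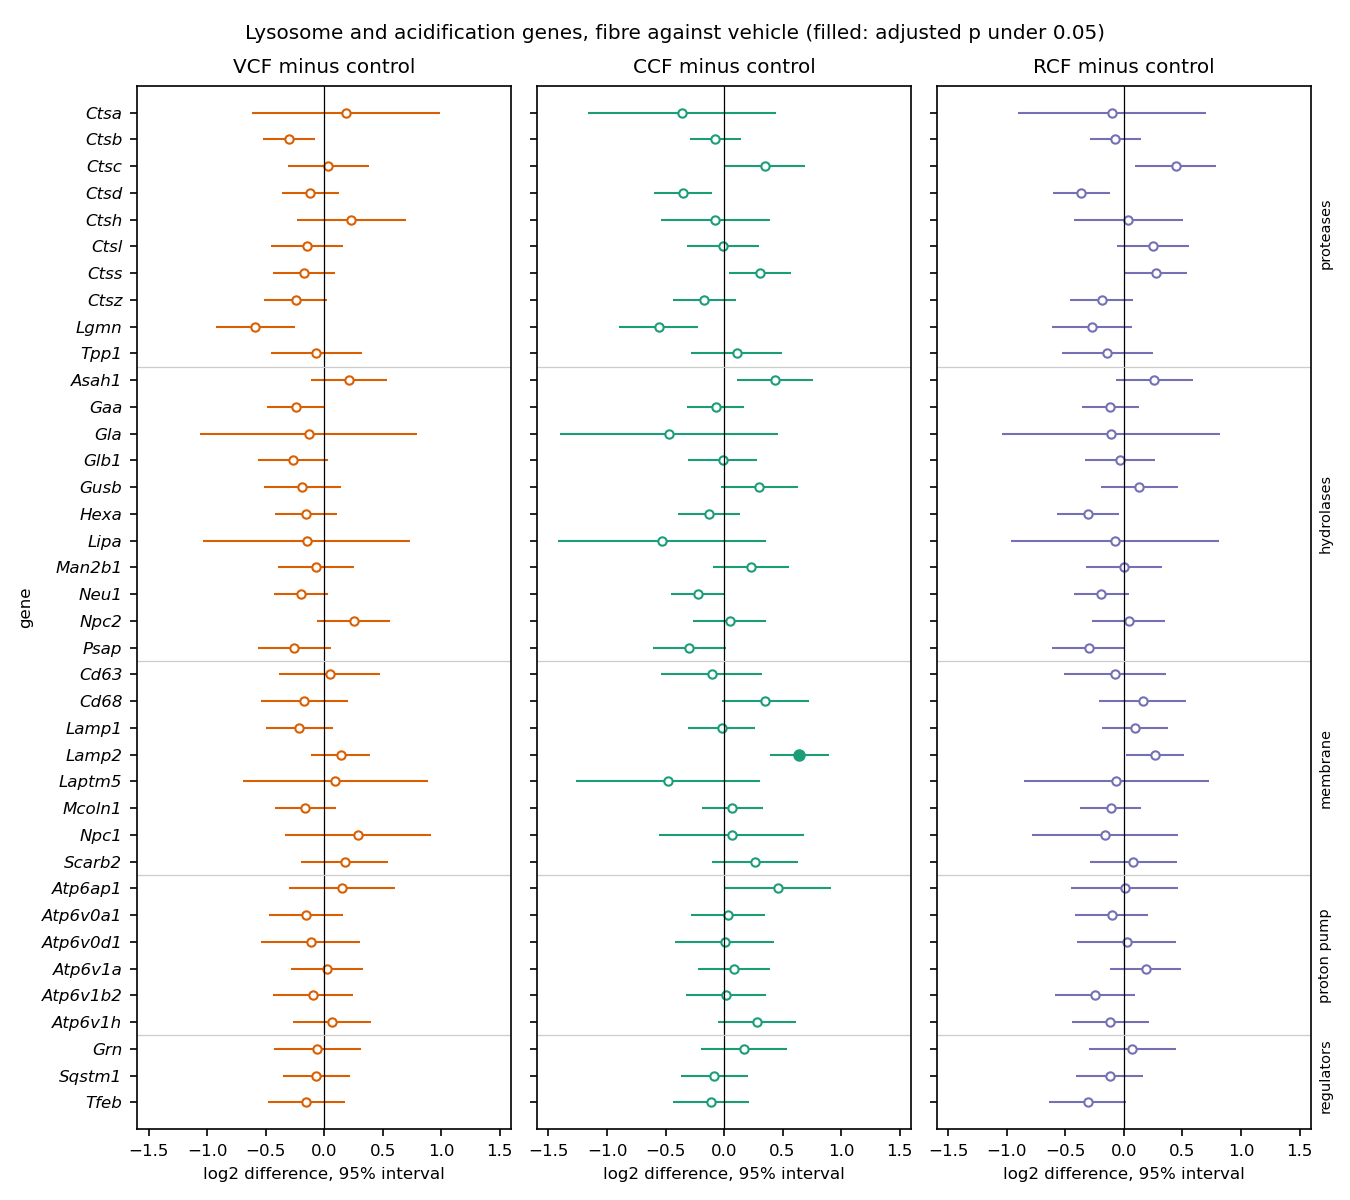
Log2 difference from vehicle (x axis) of the 38 genes (y axis, grouped by role) in VCF, CCF and RCF lungs, with limma's 95% confidence interval as a bar and a filled point where the adjusted p was under 0.05. Lamp2 in CCF, at 0.64, is the filled point, and most other intervals include 0.

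The median difference over the 38 members was −0.12 in VCF (25 of 38 below 0), −0.00 in CCF (19 below 0) and −0.08 in RCF (22 below 0). Over all genes tested it was −0.00 in VCF and CCF, with 50.3% below 0 in each, and 0.06 in RCF, with 42.9% below 0. For the mean of the fibres the members' median was −0.05, with 22 of 38 below 0, against 48.2% of all genes. These small list medians depended on how arrays were scaled. With quantile scaling the members' median was −0.01 in VCF, 0.17 in CCF (13 of 38 below 0) and −0.03 in RCF, and with scaling by the array median it was −0.22, 0.02 and −0.24. Scaling by the array median also moved the median of all genes to −0.10 in VCF and in RCF. In whole lung, fewer cells of a type and less RNA per cell cannot be told apart.

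RefSeq promoters (build GRCm38.p6) were searched for the element through which TFEB is known to act, with core CACGTG and full form GTCACGTGAC. Of the 38 members 32 had a promoter in the table used, with 37 start sites. The 250 bases before each start site were searched on both strands for CACGTG, which reads the same on both strands. It was found in 10 of 37 member promoters (27.0%) and in 6.02% of all 32851 promoters. The longer form GTCACGTG, on either strand and counted also within the CACGTG hits, was in 7 of 37 (18.9%) against 1.85%, and the full palindrome GTCACGTGAC in 0 of 37 against 0.240%. The median GC content was 54.4% in member promoters and 52.4% in all. These windows are shown because they hold the longer form, with each CACGTG in capitals, 5′ to 3′ on the strand of the gene, from chr8:13159070-13159160 (+) for Lamp1, chr8:3500418-3500509 (+) for Mcoln1, chr7:142387890-142388077 (−) for Ctsd, chr12:102439106-102439171 (−) for Lgmn, chrX:134601164-134601255 (−) for Gla, chr9:114401000-114401065 (+) for Glb1 and chr2:164833731-164833772 (+) for Ctsa.
Lamp1: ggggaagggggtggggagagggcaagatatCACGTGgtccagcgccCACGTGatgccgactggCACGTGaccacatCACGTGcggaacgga
Mcoln1: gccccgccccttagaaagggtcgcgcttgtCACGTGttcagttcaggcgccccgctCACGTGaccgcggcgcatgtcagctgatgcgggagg
Ctsd: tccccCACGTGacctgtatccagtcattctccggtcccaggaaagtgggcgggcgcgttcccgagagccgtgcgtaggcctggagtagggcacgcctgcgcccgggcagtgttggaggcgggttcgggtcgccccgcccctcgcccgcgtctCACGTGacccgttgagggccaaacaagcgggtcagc
Lgmn: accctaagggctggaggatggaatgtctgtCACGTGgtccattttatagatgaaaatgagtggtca
Gla: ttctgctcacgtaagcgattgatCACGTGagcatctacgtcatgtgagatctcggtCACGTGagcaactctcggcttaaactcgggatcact
Glb1: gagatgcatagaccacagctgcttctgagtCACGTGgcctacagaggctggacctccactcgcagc
Ctsa: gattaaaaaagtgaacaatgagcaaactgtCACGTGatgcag
The Lamp1 window holds 4 copies, which begin 61, 45, 28 and 15 bases before the start site, the windows of Mcoln1, Ctsd and Gla hold 2 each, and those of Lgmn, Glb1 and Ctsa hold 1. No CACGTG was in the window of Lamp2. Of the 10 members with CACGTG, 8 lay below 0 in VCF, 8 in CCF and 7 in RCF, with medians of −0.16, −0.05 and −0.10. Of the 22 members with a promoter and no CACGTG, 15, 9 and 11 lay below 0, with medians of −0.09, 0.04 and −0.03. None of the 10 passed limma's threshold, and the difference between both sets of members was not tested.

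Among the membrane proteins Lamp2 passed the threshold in CCF. It encodes a major glycoprotein of the lysosomal membrane that takes part in the fusion of autophagosomes with lysosomes and in chaperone-mediated autophagy. Its level was 2.99, 3.33, 2.92, 3.02 and 3.15 on control arrays 1 to 5. It was 3.76, 3.75 and 3.67 with CCF. All 3 CCF arrays lay above all 5 control arrays, close to each other. The rise was 0.64 ± 0.115 (SE), or 1.56-fold, with an adjusted p of 0.0141 in limma (n = 3 and 5). Of all genes 9.89% had CCF arrays that all lay above the controls. Lamp2 levels were 3.19, 3.22 and 3.27 with VCF and 3.43, 3.23 and 3.39 with RCF, where arrays overlapped with the highest control. The differences there were 0.14 ± 0.115 (limma, adjusted p = 0.783) and 0.27 ± 0.115 (adjusted p = 0.354).

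Lamp2 in CCF was also set directly against the other fibres. It was 0.50 ± 0.129 above VCF (limma, unadjusted p = 0.0022, adjusted p = 0.128) and RCF was 0.38 ± 0.129 below CCF (unadjusted p = 0.0127, adjusted p = 0.475). The arrays of these fibres did not overlap, but the differences did not pass over all genes. A lower-signal probe for Lamp2 gave 1.06, 1.19, 1.45, 1.25 and 1.15 on control arrays 1 to 5, 1.39, 1.51 and 1.6 with VCF, 1.56, 1.84 and 1.83 with CCF and 1.74, 1.71 and 1.91 with RCF. On this probe CCF again lay above every control array, by 0.53 (limma over all probes, adjusted p = 0.0338), while RCF stood as high, at 0.57 (adjusted p = 0.0987). The probes thus differ in whether RCF lay below CCF.

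The call for Lamp2 was close to the threshold. Within slide 1 its difference between CCF and vehicle was 0.59, and within slide 2 it was 0.75, and with slide as a block it was 0.63 (limma, adjusted p = 0.0218). The call was lost with scaling by the array median (adjusted p = 0.151), with no filter on dim probes (0.0549), with only the CCF and control arrays in the fit (0.0644), without the 3 dim arrays (0.0697) and without CCF 2 (0.0597), with a difference between 0.63 and 0.67 in each. It was lost with replicate number as a block as well, as given in the closing section.

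**Figure D2:**
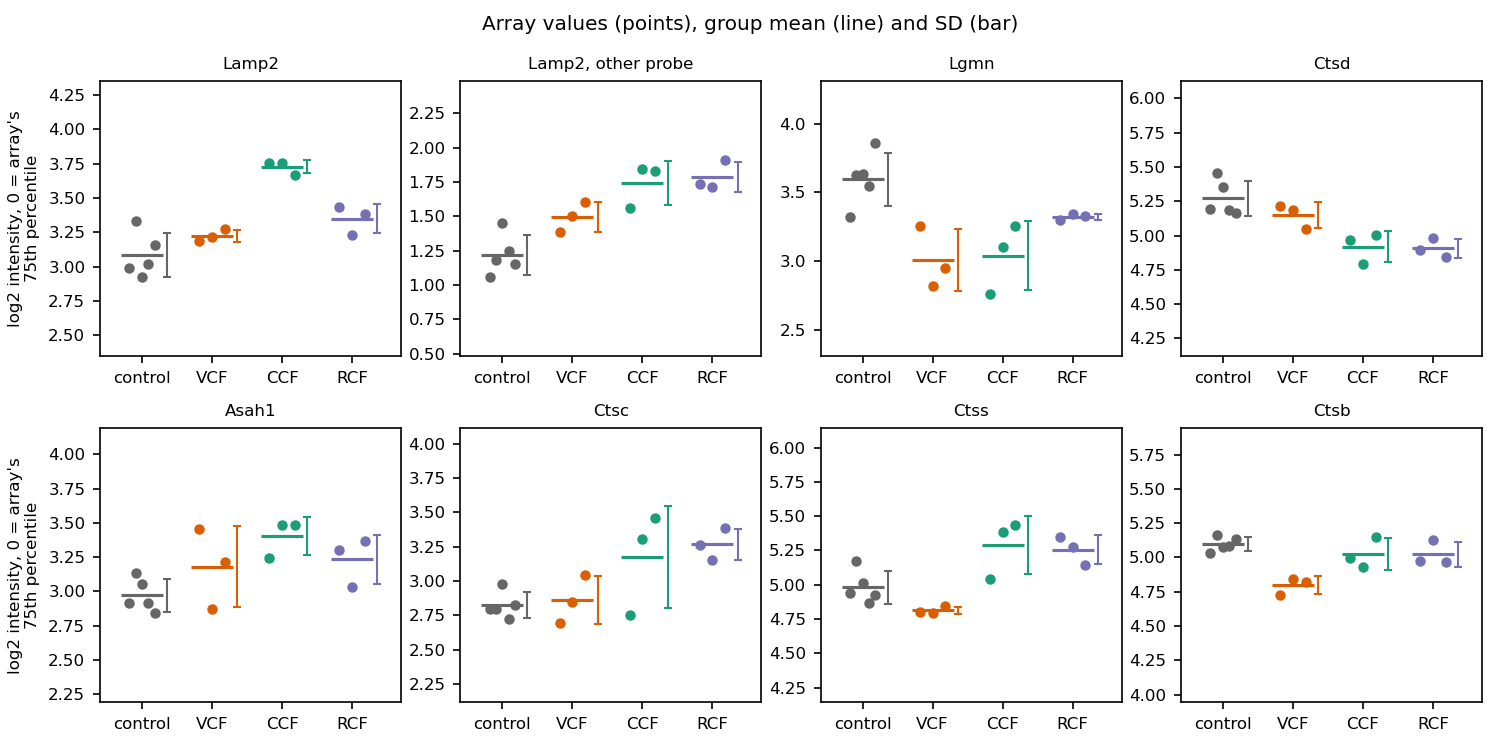
Log2 intensity on each array (points; y axis, each panel spanning 2 log2 units) with the group mean (line) and SD (bar) for Lamp2 on both of its probes, Lgmn, Ctsd, Asah1, Ctsc, Ctss and Ctsb in control, VCF, CCF and RCF lungs. The Lamp2 panel shows the CCF arrays at 3.67 to 3.76, above controls at 2.92 to 3.33, and the Lgmn panel shows VCF and CCF below every control array.

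Of the other 7 membrane proteins none passed limma's threshold in any of the 7 comparisons. Laptm5, which is found in lysosomes of blood-derived cells, was at 1.85, 0.54, 1.98, 1.43 and 1.35 in controls, 0.92, 1.46 and 2.21 with VCF, 0.43, 0.95 and 1.48 with CCF and 1.23, 1.35 and 1.52 with RCF. All groups overlapped, and the difference for CCF was −0.48 ± 0.361 (limma, adjusted p = 0.467). Npc1, which carries cholesterol out of the lysosome, was at 2.17, 1.42, 2.65, 1.82 and 1.65 in controls and 2.20, 1.86 and 2.62 with VCF, inside the range of the controls. Its difference in VCF was 0.29 ± 0.285 (adjusted p = 0.844), with 1.83, 1.75 and 2.44 with CCF and 1.51, 1.80 and 2.02 with RCF also inside that range. Control 3, VCF 3 and CCF 3, which share slide 2, were its highest arrays, and within that slide the difference in VCF was −0.03. Cd68, the sialomucin of macrophage lysosomes used to stain these cells, differed by −0.17 ± 0.17 in VCF, 0.35 ± 0.17 in CCF and 0.16 ± 0.17 in RCF (adjusted p = 0.843, 0.237 and 0.77). CCF lay above VCF for Cd68 by 0.52 ± 0.191, without overlap of arrays (unadjusted p = 0.0179, adjusted p = 0.253). Scarb2, the receptor that brings glucocerebrosidase to the lysosome, differed from vehicle by 0.26 in CCF, 0.17 in VCF and 0.08 in RCF. Lamp1, the close relative of Lamp2, differed by −0.21 in VCF, −0.02 in CCF and 0.09 in RCF, so that the rise of Lamp2 in CCF was not matched by a call for Lamp1 (95% interval −0.31 to 0.27). The tetraspanin Cd63 and the lysosomal calcium channel Mcoln1 lay between −0.16 and 0.07 in all 3 fibres.

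None of the 10 proteases passed, whichever fibre was set against vehicle. Lgmn encodes legumain, which cuts after asparagine and processes other lysosomal proteases. It was at 3.32, 3.63, 3.63, 3.55 and 3.86 in controls, 3.26, 2.82 and 2.95 with VCF, 2.76, 3.1 and 3.25 with CCF and 3.30, 3.34 and 3.33 with RCF. All VCF and CCF arrays lay below all controls, while the RCF arrays overlapped with the lowest control. The difference was −0.59 ± 0.156 in VCF (limma, adjusted p = 0.197), −0.56 ± 0.156 in CCF (adjusted p = 0.0565), −0.27 ± 0.156 in RCF (adjusted p = 0.505) and −0.47 ± 0.119 for the mean of the fibres (adjusted p = 0.0572). Over the alternatives tried, the CCF difference of Lgmn ran from −0.67 to −0.38, and it passed the threshold with the authors' deposited table, with probes above background on all 14 arrays and with slide as a random block.

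Ctsd encodes cathepsin D, the main aspartic protease of the lysosome. Its level was 5.19, 5.46, 5.35, 5.18 and 5.17 in controls, 5.21, 5.19 and 5.05 with VCF, 4.97, 4.79 and 5.0 with CCF and 4.89, 4.98 and 4.84 with RCF. CCF and RCF arrays lay below every control, and VCF overlapped with them. The difference was −0.35 ± 0.112 in CCF (limma, adjusted p = 0.083) and −0.36 ± 0.112 in RCF (adjusted p = 0.192). For the mean of the fibres it was −0.28, but −0.10 with quantile scaling. The cysteine protease Ctsb was at 5.03, 5.16, 5.07, 5.08 and 5.14 in controls, 4.72, 4.85 and 4.82 with VCF, 5.0, 4.93 and 5.15 with CCF and 4.97, 5.13 and 4.97 with RCF. Only its VCF arrays all lay below the controls, by 0.30 ± 0.0999 in the mean (adjusted p = 0.317), or by 0.15 with quantile scaling. Ctsz, an exopeptidase, also had all VCF arrays below the controls (−0.24 ± 0.124, adjusted p = 0.559).

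Ctsc and Ctss had differences above 0 in CCF and RCF, without passing the threshold. Ctsc, which activates the serine proteases of neutrophil and mast cell granules, was at 2.80, 2.79, 2.98, 2.73 and 2.82 in controls, 2.70, 2.85 and 3.04 with VCF, 2.76, 3.31 and 3.46 with CCF and 3.26, 3.16 and 3.38 with RCF. All 3 RCF arrays and 2 of 3 CCF arrays lay above every control. Its difference was 0.44 ± 0.158 in RCF (limma, adjusted p = 0.249), 0.35 ± 0.158 in CCF (adjusted p = 0.205) and 0.04 ± 0.158 in VCF (adjusted p = 0.981). Ctss, the cathepsin that trims the class II invariant chain, was at 4.94, 5.17, 5.01, 4.86 and 4.92 in controls, 4.80, 4.79 and 4.84 with VCF, 5.04, 5.38 and 5.44 with CCF and 5.35, 5.27 and 5.14 with RCF. Its VCF arrays all lay below the controls, while CCF and RCF each overlapped with the highest control. The differences were −0.17 ± 0.122 in VCF, 0.31 ± 0.122 in CCF and 0.27 ± 0.122 in RCF (adjusted p = 0.739, 0.154 and 0.371). Set against VCF, Ctss was higher on all CCF arrays, by 0.47 ± 0.136 (unadjusted p = 0.0046, adjusted p = 0.163), and on all RCF arrays, by 0.44 ± 0.136 (unadjusted p = 0.0071, adjusted p = 0.375). With quantile scaling Ctss passed limma's threshold in CCF, at 0.58 (adjusted p = 0.0303).

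Ctsh, an aminopeptidase that also processes surfactant protein B in type 2 cells, was at 5.70, 5.98, 5.81, 5.80 and 5.99 in controls, 6.45, 6.07 and 5.74 with VCF, 5.20, 6.06 and 6.09 with CCF and 5.99, 5.78 and 5.91 with RCF. On this brightest probe of Ctsh the groups overlapped, with VCF at 0.23 ± 0.213, CCF at −0.07 ± 0.213 and RCF at 0.04 ± 0.213 (limma, adjusted p = 0.824, 0.884 and 0.976). Without VCF 1, a dim array and the highest of the 14, the difference of Ctsh in VCF was 0.05, and within slide 2 it was −0.06. Ctsl, Tpp1 and Ctsa, a cysteine protease, a tripeptidase and the protective protein of a sialidase complex, had differences between −0.36 and 0.25 in the 3 comparisons with vehicle, none past the threshold. Over the 10 proteases the median was −0.14 in VCF, −0.07 in CCF and −0.09 in RCF. With quantile scaling it was −0.00, 0.21 and −0.03, so that the sign turned in CCF.

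The hydrolases of sugars and lipids had no member past the threshold. Asah1, the acid ceramidase, was at 2.91, 3.14, 3.06, 2.91 and 2.84 in controls, 3.46, 2.87 and 3.21 with VCF, 3.25, 3.48 and 3.49 with CCF and 3.30, 3.03 and 3.37 with RCF. All CCF arrays lay above every control, and the arrays of VCF and RCF overlapped with them. The difference was 0.43 ± 0.149 in CCF (limma, adjusted p = 0.104), 0.21 ± 0.149 in VCF and 0.26 ± 0.149 in RCF (adjusted p = 0.738 and 0.509). With the mean of its probes in place of the brightest, Asah1 passed in CCF at 0.71 (adjusted p = 0.0417).

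Psap, the precursor of the saposins that help lipid-splitting enzymes, was at 4.58, 4.43, 4.88, 4.84 and 4.87 in controls, 4.25, 4.56 and 4.57 with VCF, 4.36, 4.36 and 4.55 with CCF and 4.56, 4.41 and 4.29 with RCF. The groups overlapped through the lower control arrays, and the mean of the fibres lay 0.28 below vehicle in log2 (−0.28 ± 0.109, limma, adjusted p = 0.175). Hexa, the alpha subunit of hexosaminidase, was at 3.35, 3.1, 3.27, 3.21 and 3.29 in controls, 3.07, 3.11 and 3.08 with VCF, 3.22, 2.89 and 3.25 with CCF and 3.09, 2.95 and 2.77 with RCF. Its RCF arrays all lay below the lowest control, RCF 1 by little, at −0.31 ± 0.121 (adjusted p = 0.3). Of the 38 members, 3 had all RCF arrays below the controls (Ctsd, Hexa and the sialidase Neu1) and 1 above (Ctsc), where the shares of all genes were 3.77% and 7.62%. In CCF 2 members lay below (Ctsd and Lgmn) and 3 above (Lamp2, Asah1 and Atp6ap1), where the shares were 6.46% and 9.89%. In VCF 5 lay below (Ctsb, Ctss, Ctsz, Lgmn and Neu1) and 1 above (Npc2), where the shares were 3.91% and 3.46%. On the probe used, no member had all 9 fibre arrays on the same side of the controls, where 1.08% of all genes did above and 0.562% below. These counts are for the brightest probe of each gene, and a further Ctsh probe had every fibre array above every control.

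Npc2, which hands cholesterol to Npc1, was at 5.16, 5.13, 5.15, 5.05 and 4.92 in controls and 5.50, 5.32 and 5.18 with VCF. Each VCF array lay above the controls, the lowest by little, at 0.25 ± 0.143 (limma, adjusted p = 0.621), with 5.04, 5.25 and 5.10 with CCF and 5.44, 5.10 and 4.84 with RCF. The beta-galactosidase Glb1 was at 1.59, 1.17, 1.38, 1.25 and 1.39 in controls, 0.84, 1.28 and 1.15 with VCF, 1.49, 1.19 and 1.35 with CCF and 1.39, 1.31 and 1.27 with RCF. VCF 1, a dim array, was the lowest, and VCF as a group overlapped with the controls at −0.27 ± 0.136 (adjusted p = 0.564). With the mean of its probes the sign of Glb1 in VCF turned, to 0.17.

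Lipa, the acid lipase that splits cholesteryl esters and triglycerides, was at 0.25, −1.07, 0.42, 0.53 and 0.30 in controls, −0.38, −0.33 and 0.52 with VCF, −0.81, −0.64 and 0.12 with CCF and −0.71, 0.36 and 0.38 with RCF. Control 2 was lower than every other array, the groups overlapped, and the difference in CCF was −0.53 ± 0.406 (limma, adjusted p = 0.479). Without control 2 it was −0.82 (adjusted p = 0.142), without CCF 3 it was −0.81 (0.343), without CCF 1 it was −0.34 (0.75), and with slide as a block it was −0.27 (0.558). The alpha-galactosidase gene Gla spread as widely, from −0.47 ± 0.425 in CCF to −0.11 ± 0.425 in RCF. Its only probe gave 5.92 to 7.25 in controls, and in RefSeq the gene lies next to the ribosomal protein gene Rpl36a. Whether that probe reads RNA of a gene other than Gla was not tested. The glucosidase Gaa, the glucuronidase Gusb, the mannosidase Man2b1 and Neu1 lay between −0.24 and 0.30 in all 3 comparisons. Among them Gusb was higher in CCF than in VCF without overlap of arrays, by 0.49 ± 0.169 (unadjusted p = 0.0138, adjusted p = 0.233).

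The 6 proton pump genes measured here encode subunits of the membrane-embedded sector (Atp6v0a1, Atp6v0d1), subunits of the ATP-splitting sector (Atp6v1a, Atp6v1b2, Atp6v1h) and an accessory protein (Atp6ap1). None passed limma's threshold. The range was −0.15 to 0.15 in VCF and −0.25 to 0.19 in RCF. In CCF the 6 differences were all above 0, from 0.01 to 0.46, with a median of 0.06, and 1 of them lay below 0 with quantile scaling. Atp6ap1 gave the widest values, at −0.35, −0.13, 0.34, 0.08 and −0.14 in controls, −0.07, 0.35 and 0.06 with VCF, 0.43, 0.34 and 0.50 with CCF and 0.46, −0.13 and −0.44 with RCF. Its CCF arrays lay at or above the highest control, at 0.46 ± 0.208 (adjusted p = 0.202), whereas the RCF arrays spread over and beyond the range of the controls. Atp6v1h was lower on all RCF than on all CCF arrays, by 0.40 ± 0.17 in the mean (unadjusted p = 0.0387, adjusted p = 0.521).

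The 3 regulators gave no call. Tfeb, the transcription factor of lysosomal genes, was at −0.92, −0.66, −0.88, −0.79 and −1.06 in controls, −1.14, −1.0 and −0.91 with VCF, −0.87, −1.16 and −0.90 with CCF and −0.85, −1.24 and −1.43 with RCF. RCF 2 and RCF 3 lay below every control and RCF 1 did not, and the difference was −0.31 ± 0.15 (limma, adjusted p = 0.419). Tfeb had 4 probes, and over the alternatives tried its RCF difference ran from −0.47 to −0.06. Grn, the progranulin precursor needed for lysosomal function, and Sqstm1, the autophagy receptor p62, lay between −0.12 and 0.17 in all 3 fibres.

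Between fibres no member passed. In CCF against VCF 0 of 38 passed, where 0.222% of all genes did, and 4 members had an unadjusted p under 0.05, all higher in CCF (Ctss, Lamp2, Cd68 and Gusb), against 7.56% of all genes. In RCF against VCF 0 of 38 passed, where 0.00981% of all genes did, and 3 were higher at an unadjusted p under 0.05 (Ctsc, Ctsl and Ctss), against 6.17%. In RCF against CCF 0 of 38 passed, where 0.00327% of all genes did, and 2 were lower at an unadjusted p under 0.05 (Lamp2 and Atp6v1h), against 3.38%. The CCF and VCF arrays did not overlap for 8 of 38 members (7 with CCF above and 1 below), where 19% of all genes did not. For RCF against VCF it was 10 members (8 above and 2 below), where the share of all genes was 15.5%, and for RCF against CCF 5 (1 above and 4 below), where it was 16%. The intervals bound these differences within a 2-fold change for 34, 33 and 34 of 38 members. RCF 2 and RCF 3 stood on a slide without VCF or CCF arrays. Differences of RCF from VCF or CCF can thus not be fully told apart from slide.

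Probes of the same gene often disagreed. Of the 38 members 14 had further probes past the filter, 18 in all. In CCF 15 of these 18 lay above 0 (83.3%), at a median of 0.51, where the probes used for the same genes had a median of 0.00. Among the further probes of all genes 57.2% of 7405 lay above 0 (median 0.10), and the difference between both shares was not tested. Of the 18, 8 (44.4%) had the sign of the probe used, against 58.7% over all genes. Of the 13 further probes above background on all 14 arrays 8 had that sign (61.5%), against 60.9% over all genes. In VCF 14 of 18 lay above 0 (77.8%, against 62.3%) and in RCF 13 of 18 (72.2%, against 57.4%). Among the 13 further probes above background on all 14 arrays, which belong to 11 genes, 11 lay above 0 in CCF (84.6%). Over all genes 56.3% of 4468 such probes did.

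Of the further probes 3 passed limma's threshold in CCF (16.7%, against 4.11% higher over all genes), and all 3 were higher. They belong to Lamp2, Asah1 (0.98, adjusted p = 0.0303) and Ctsh. The called Ctsh probe was at 0.08, 0.02, 0.34, 0.21 and 0.15 in controls, 1.00, 0.98 and 0.65 with VCF, 0.68, 1.04 and 1.23 with CCF and 0.85, 0.66 and 0.71 with RCF. Every fibre array lay above every control on it, by 0.83 in the mean for CCF (adjusted p = 0.0142), while the brightest Ctsh probe showed no such split. Which transcripts each probe reads was not tested, and positions are not given because the array was designed on an older assembly.

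**Figure D3:**
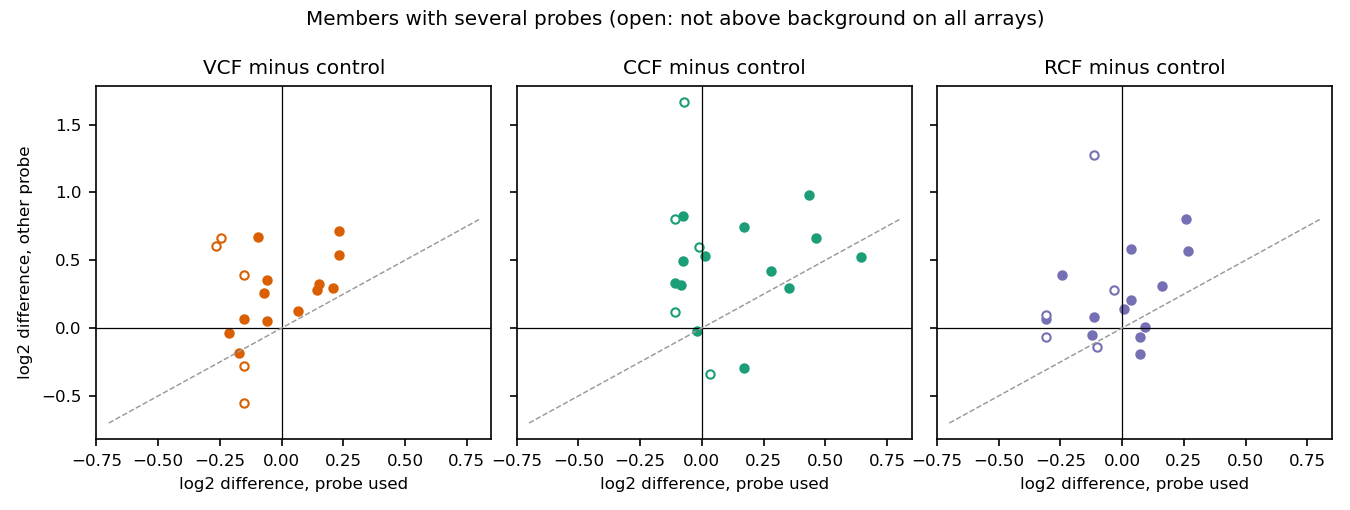
Log2 difference from vehicle on the 18 further probes (y axis) against the probe used for the same gene (x axis) in VCF, CCF and RCF, with open points for probes not above background on all 14 arrays and equal values on the dashed line. In CCF 15 of 18 points lie above 0 on the y axis, and the points spread on both sides of 0 on the x axis.

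Of 116 other genes of the pathway measured, from a list of pump, hydrolase, membrane, signalling, autophagy and phagosome genes, 4 rose in CCF and 0 fell, and 0 passed in VCF or RCF (limma, adjusted p over all genes). The count in CCF was near the share of all genes, 3.78% higher. Ids, the iduronate sulfatase of heparan and dermatan sulfate breakdown, was at 3.50, 3.78, 3.38, 3.59 and 3.59 in controls and 4.13, 4.29 and 4.05 with CCF, a rise of 0.59 ± 0.121 (adjusted p = 0.0205). Laptm4a, a relative of Laptm5, was at 2.85, 2.83, 3.13, 2.94 and 2.64 in controls and 3.51, 3.44 and 3.49 with CCF, a rise of 0.60 ± 0.121 (adjusted p = 0.0191). For both genes the CCF arrays lay above all controls, as they did for the endolysosomal sialomucin Cd164 (0.52 ± 0.134, adjusted p = 0.0428) and the autophagy receptor Nbr1 (0.69 ± 0.175, adjusted p = 0.041). Ids and Laptm4a also passed for the mean of the fibres, at 0.41 and 0.46 (adjusted p = 0.0444 and 0.031). The median over the 116 genes was −0.07 in VCF, 0.05 in CCF and 0.01 in RCF. By list, 0 of 18 other pump genes, 1 of 33 other hydrolases, 2 of 21 membrane and trafficking genes, 0 of 11 TFE and signalling genes, 1 of 14 autophagy genes and 0 of 19 phagosome genes passed in CCF.

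Markers of lung cell types were measured beside the members. Of all genes, 3.78% rose and 2.21% fell past limma's threshold in CCF. In CCF 1 of 14 alveolar macrophage markers passed limma's threshold (Siglecf, 0.59, adjusted p = 0.0368), with a list median of 0.24, and 1 of 13 interstitial macrophage and monocyte markers (Lyve1, 1.08, adjusted p = 0.00993), with a median of 0.22. In VCF those medians were 0.01 and −0.17, and in RCF 0.21 and 0.08, with 0 called. Neutrophil markers had a median of 0.81 in VCF (0 of 11 called), −0.78 in CCF (4 of 11 lower) and 0.04 in RCF. B cell markers lay at −0.62, −0.82 and −0.65, and T cell markers at −0.67, −0.31 and −0.24. Alveolar type 2 markers, whose cells hold lysosome-related lamellar bodies, lay at −0.07, −0.11 and −0.02. The part of these shifts in the values of the members was not tested.

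**Figure D4:**
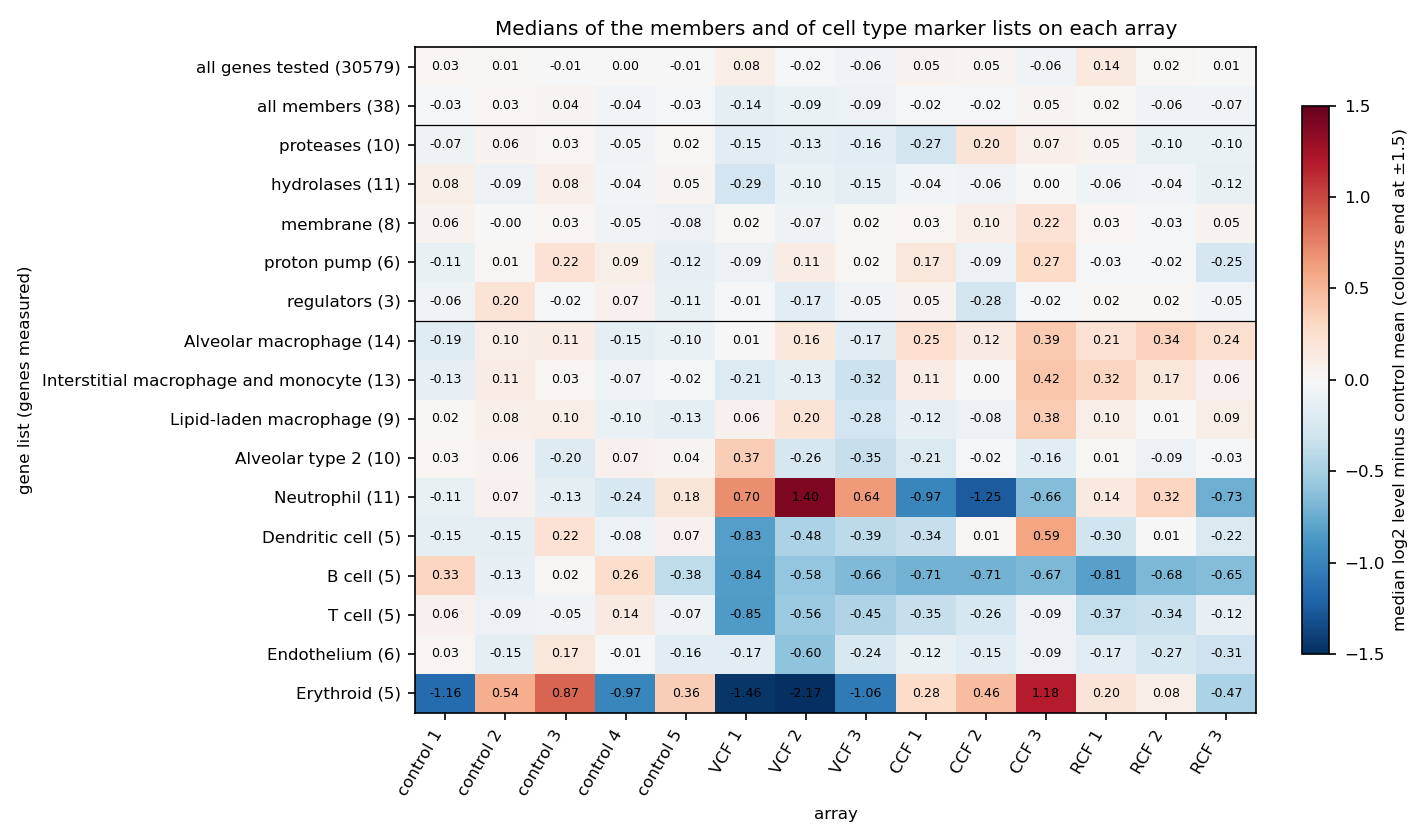
Median over the genes of each list (rows, with the number measured) of the log2 level minus the control mean, on each of the 14 arrays (columns), with colours that end at ±1.5. The members stay between −0.14 and 0.05 on every array, while neutrophil markers run from −1.25 in CCF 2 to 1.40 in VCF 2 and erythroid markers from −2.17 to 1.18.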

How the data were processed

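Per the file headers, Feature Extraction 10.7.3.1 turned the scans into values. The deposited array files hold intensity values that the authors' program had background-subtracted but not scaled between arrays. The authors' deposited value table holds log2 values of the same signal minus a constant for each array of unstated origin, with blanks where a probe was not well above background. Here the processed signal was put on a log2 scale and each array's 75th percentile, controls left out, was subtracted. A probe was kept if well above background on 3 or more of 14 arrays. Symbols came through the RefSeq accession of a probe, and the brightest probe stood for a gene. Limma 3.58.1 in R 4.3.3 (version 1.17.8 of data.table) was fitted to all 14 arrays without covariates, for 7 comparisons, two-sided, with Benjamini-Hochberg adjustment over all genes and a threshold of 0.05. The fit was tested on simulated data.

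The members and lists were chosen with earlier results of these data known. Members named with every array were those past the threshold and the 3 highest and 3 lowest in each comparison with vehicle, and others were named after their values were seen. Other pathway genes were named at most 2 a list by smallest adjusted p. The promoters shown hold the longer form of the motif, GTCACGTG, which was not among the forms planned. Of 18 pairs with a shared replicate number 12 had residuals correlated above 0.1 (median r 0.181), and 12 of the 18 share a slide. Of 54 pairs with other numbers 11 did (median r −0.0352), and 13 of the 54 share a slide. Replicate number and slide can thus not be fully told apart, and arrays were not treated as paired. Spots give no counts, so the number of arrays limits the precision. For the normexp alternative the median spot signal replaced the mean, which the files used here lack. Alternatives were background correction, scaling, source of values, filter, probe rule, arrays in the fit and blocks.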

Additional observations from a re-analysis of the deposited data

Results flagged for a closer look

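Among the 38 members, 2 (5.26%) had a control array far from the other 4 by Dixon's test, about the share that chance gives (1 in 20 groups). Gla stood at 5.92 in control 3, where the other controls ran from 7.0 to 7.25. Control 3 lay on slide 2, and the other arrays of that slide were as low for Gla, with VCF 3 at 6.04 and CCF 3 at 5.93. Lipa stood at −1.07 in control 2, where the others ran from 0.25 to 0.53. Control 2 was the lowest or highest of the 5 controls for 25 of 38 members (65.8%), against 56.3% of all genes. The members' median for CCF against vehicle stayed between −0.05 and 0.04 when any of its arrays was left out.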

How the results depend on the processing

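The count of members past limma's threshold was 0 under every alternative run for VCF, RCF, RCF against VCF and RCF against CCF. For CCF against vehicle (1, Lamp2) it was 2 with normexp background and quantile scaling and 2 with quantile scaling alone (Ctss and Lamp2), 2 with the authors' deposited table (Lamp2 and Lgmn), 2 with the mean of a gene's probes (Lamp2 and Asah1), and 3 with probes above background on all 14 arrays or with slide as a random block (Ctsd, Lamp2 and Lgmn). Calls over all genes in CCF moved as well, from 1832 of 30579 to 2700 of 19880 with all-array probes. They were 2953 of 30579 with slide as a random block and 2332 of 25443 with the authors' deposited values. Of 30579 genes 1435 passed with normexp background, 1497 with quantile scaling and 1387 with the mean of probes. Over all genes 112 passed with scaling by the array median, 372 with no filter, 271 with only the groups compared and 418 without the 3 dim arrays. In these last settings the count of members was 0. For the mean of the fibres (0) it was 1 with normexp background, with quantile scaling and with the mean of probes (Lamp2 each), 2 with the authors' deposited table (Lamp2 and Lgmn) and 3 with all-array probes or slide as a random block (Ctsd, Lamp2 and Lgmn). For CCF against VCF (0) it was 1 with slide as a random block (Lamp2). Leaving out each array in turn gave 0 to 1 for CCF (0 without CCF 2), 0 to 1 for the mean of the fibres (1 without control 2, Lamp2, and 1 without VCF 1, Lgmn) and 0 to 0 elsewhere.

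Replicate number and slide cannot be fully told apart here. With replicate number as a block, which drops control 4 and control 5, the count of members was 0 in all 7 comparisons. Of all genes 2 passed in CCF. Lamp2 in CCF was then 0.65 (limma, adjusted p = 0.125). Its difference ran from 0.58 to 0.75 over all alternatives. No called value changed sign. With 3 arrays a fibre, single differences under about 0.3 in log2 lie within 2 standard errors for the median member, and the cause of the lost calls was not tested.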
